A study of Zea mays with 12 samples.

Results

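Of 39324 gene IDs in the deposited maize gene table, 4 were taken here as readers of the circadian clock. They were chosen by ID, with earlier results of these data known. The morning genes were lhy (Zm00001d024546) and cca1 (Zm00001d049543), and the evening genes were the gigantea genes Zm00001d008826 and Zm00001d039589. Names were attached to these IDs by the rule that chose them, since neither the files nor the reference gene table pair IDs with names.

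RNA was sequenced from shoot apices of maize inbred line B104, which held the shoot apical meristem, leaf primordia of plastochrons 0 to 5 and leaf sheath. The seedlings had germinated for 7 days in vermiculite. The 3 mutants were homozygous for loss-of-function alleles of tml1 and tml2 (TOO MANY LATERALS) made by CRISPR/Cas9 editing, and the edits segregated apart from the editing transgene. The 3 wild types were siblings segregating from the same edited material, so both groups shared the B104 background. The labels number the samples 2, 3 and 4 in each genotype, and each sample was sequenced in 2 runs. They do not say how many independent edits the mutants represent, whether a sample is 1 apex or a pool, or at what time of day the apices were dissected. The p-values therefore measure the spread among these samples. Totals were 27213045 to 31980554 estimated counts per sample with both runs summed. Of 17 tissue marker symbols listed for a check of the labelled tissue and 21 symbols of other clock genes, 0 could be paired with an ID in the table, so they were not analysed here.

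In Arabidopsis, CCA1 and LHY are related MYB-type transcription factors whose transcripts peak around dawn and which repress genes expressed in the evening, GIGANTEA among them. GIGANTEA encodes a large plant-specific protein whose transcript peaks late in the day, which stabilises a blue-light photoreceptor of the clock and promotes the photoperiodic flowering pathway. A transcript ratio of morning over evening genes changes through the day for this reason. Maize carries duplicated copies of several of these genes, and the 4 rows described here form a morning pair and an evening pair.

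The 4 clock genes were well expressed in every apex, with 956 to 12613 estimated counts per sample. All 4 passed the expression filter. Between genotypes, 0 of the 4 reached an edgeR adjusted p of up to 0.05, beside 0 of all 22772 genes tested. The largest departure of any sample was that of cca1 in mutant 4. By level per length, in TPM (transcripts per 1000000 transcripts, mean of both runs), Zm00001d008826 had a median of 43.4 TPM over the 6 samples, cca1 38.2 TPM, lhy 37.5 TPM and Zm00001d039589 16.2 TPM. The first 3 overlapped widely in their ranges, and their order does not exceed their spread. Zm00001d039589 was the lowest of the 4 genes in each of the 6 samples. In bulk apices, fewer cells expressing a gene and less RNA per cell cannot be told apart.

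**Figure D1:**
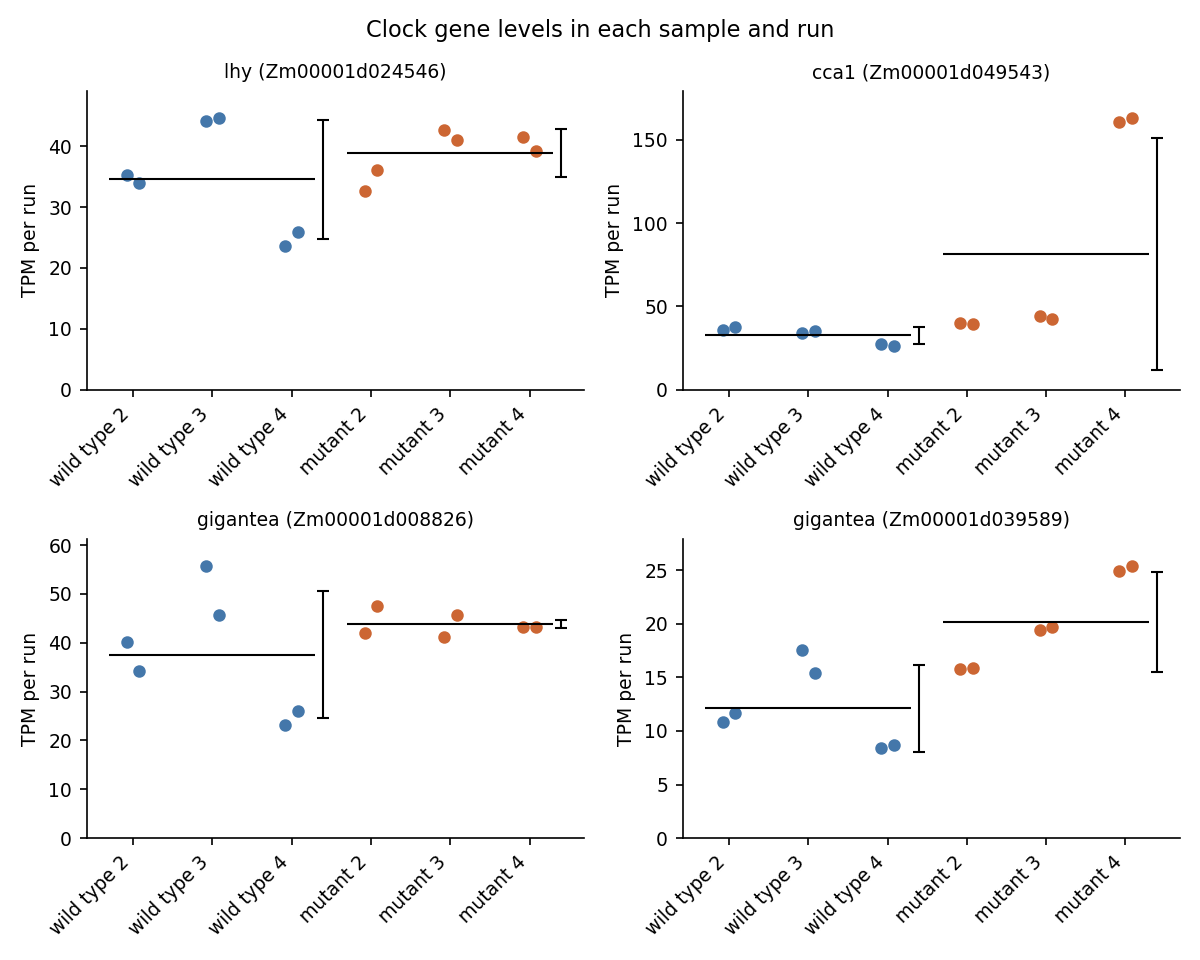
TPM of each clock gene in each sample, with 1 point per sequencing run, wild types in blue and mutants in orange; horizontal lines are genotype means over 3 samples and vertical bars are ± SD. Runs of a sample lie close together for cca1, whose mutant 4 stands at 162 TPM while the other samples span 26.9 to 43.1 TPM, and Zm00001d008826 shows the widest gaps between runs.

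The first morning gene, lhy, carries the name of the dawn repressor LHY. Its level was 34.6, 44.4 and 24.8 TPM in wild types 2, 3 and 4 and 34.4, 41.9 and 40.4 TPM in mutants 2, 3 and 4. All 3 mutants lay inside the wild-type range, whose ends were wild type 4 and wild type 3. The genotype means were 34.6 ± 9.81 TPM in the wild type and 38.9 ± 3.96 TPM in the mutant (SD, n = 3 each). The log2 fold change, mutant over wild type, was 0.03 (SE 0.19), with an adjusted p of 0.94 in edgeR's quasi-likelihood test. A smaller absolute fold change was found in 6.7% of all genes tested.

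The second morning gene, cca1, carries the name of the dawn repressor CCA1. Its level was 36.7, 34.4 and 26.9 TPM in wild types 2, 3 and 4 and 39.6, 43.1 and 162 TPM in mutants 2, 3 and 4. Mutant 4 stood apart, and the other 5 samples lay close together. On the TPM scale every mutant was above every wild type. How many of all genes were separated in this way in TPM was not counted. Genes in general leaned upward in the mutant on such a scale. In limma on log2(TPM + 1), 2245 genes were higher and 740 lower at an unadjusted p under 0.05. On the scaled CPM scale (counts per 1000000 counts after TMM scaling of the libraries) the groups overlapped, since mutant 2 at 107.4 CPM lay just under wild type 2 at 107.9 CPM. Mutant 4 was at 408 CPM, 3.52-fold above the next highest sample, mutant 3 at 116 CPM.

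The genotype means of cca1 were 32.7 ± 5.12 TPM in the wild type and 81.6 ± 69.6 TPM in the mutant (SD, n = 3 each). The log2 fold change was 1.15 (SE 0.53), a larger absolute change than in 91.3% of the genes tested, and edgeR's adjusted p was 0.42. Without mutant 4 the log2 fold change was 0.23 (SE 0.16), with an edgeR adjusted p of 0.78. The difference between genotype means therefore rested on 1 sample.

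The high cca1 value was present in both runs of that library, at 161 and 163 TPM, so it was not a feature of a single run. Mutant 4 was also the sample farthest out on the main axis of variation of the whole transcriptome, and it was the highest of the 6 samples for 29.3% of all genes tested. For 221 genes, or 0.97% of the 22772 tested, mutant 4 exceeded the next sample by at least the 3.52-fold seen for cca1. In the other 5 samples such genes numbered 0 to 71 each. These counts were made after the cca1 value had been seen, and their part in it was not tested.

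lhy and cca1 did not rise together in mutant 4. In that sample the ratio of cca1 to lhy was 4.01 in TPM, while in the other samples it was 1.06, 0.776 and 1.09 in wild types 2, 3 and 4 and 1.15 and 1.03 in mutants 2 and 3. The 2 morning genes were thus near equal per length in 5 samples and unequal in 1. lhy in mutant 4, at 40.4 TPM, was below wild type 3. Over the 6 samples the correlation of log2 CPM of lhy with cca1 was 0.15 (Pearson, exact permutation p = 0.79) and 0.37 (Spearman, exact permutation p = 0.50).

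**Figure D2:**
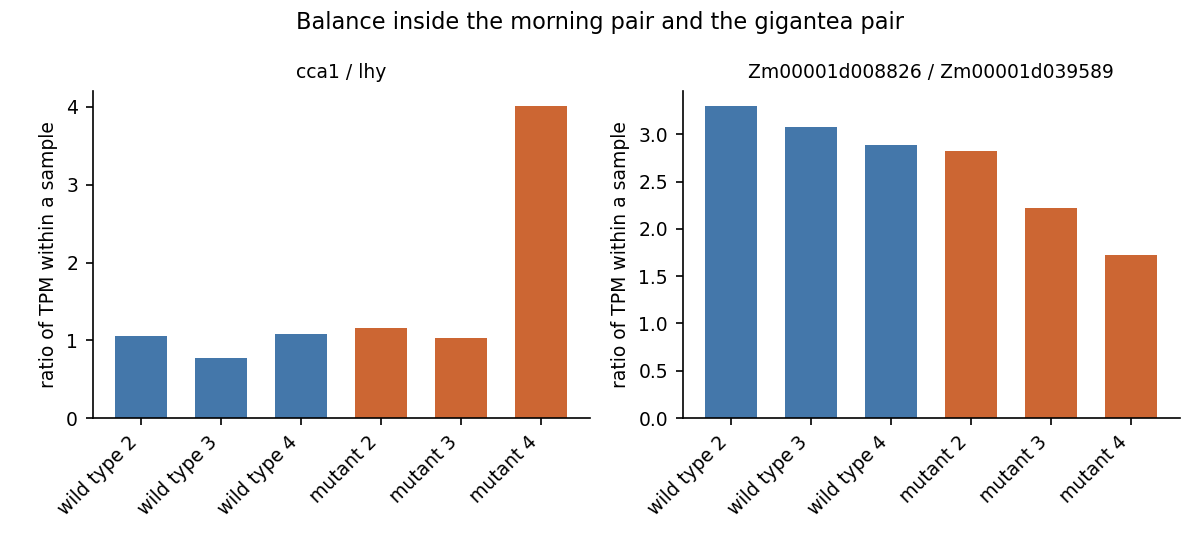
Ratio of TPM between the 2 morning genes (left) and between the 2 gigantea genes (right) within each of the 6 samples, wild types in blue and mutants in orange; bars start at 0. The cca1 to lhy ratio is 4.01 in mutant 4 and 0.776 to 1.15 elsewhere, and the gigantea ratio is 2.88 to 3.30 in wild types and 1.72 to 2.82 in mutants.

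Of the evening genes, Zm00001d008826 was the more abundant gigantea copy. Its level was 37.2, 50.7 and 24.7 TPM in wild types 2, 3 and 4 and 44.8, 43.5 and 43.3 TPM in mutants 2, 3 and 4. The mutants were nearly equal to each other and lay inside the wild-type range. The means were 37.5 ± 13.0 TPM in the wild type and 43.8 ± 0.806 TPM in the mutant (SD, n = 3 each). The log2 fold change was 0.02 (SE 0.22), with an edgeR adjusted p of 0.97.

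The other gigantea copy, Zm00001d039589, was at 11.3, 16.5 and 8.56 TPM in wild types 2, 3 and 4 and at 15.9, 19.6 and 25.2 TPM in mutants 2, 3 and 4. Mutants 3 and 4 were above all wild types, and mutant 2 was just under wild type 3, so the groups overlapped. The means were 12.1 ± 4.02 TPM in the wild type and 20.2 ± 4.69 TPM in the mutant (SD, n = 3 each). The log2 fold change was 0.50 (SE 0.26), with an edgeR adjusted p of 0.45. On the log2(TPM + 1) scale, where the median of all genes was itself 0.13 higher in the mutant, it was 0.71, or 0.59 relative to that median, and limma's adjusted p was 0.35. Without wild type 4, the lowest sample, the edgeR log2 fold change was 0.29, and without mutant 4, the highest, it was 0.34.

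With both runs combined, the balance between the 2 gigantea copies was lower in each mutant than in each wild type. This comparison was chosen after its values were seen. The TPM of Zm00001d008826 was 3.30, 3.08 and 2.88 times that of Zm00001d039589 in wild types 2, 3 and 4, and 2.82, 2.22 and 1.72 times in mutants 2, 3 and 4. The groups did not overlap, although mutant 2 lay close to wild type 4. In run 2 alone they overlapped. There mutant 2 had a higher ratio than wild type 2, with 47.6 over 15.9 TPM against 34.2 over 11.7 TPM. With estimated counts summed over both runs the ratios were 2.66, 2.75 and 2.95 in the wild types and 2.45, 2.09 and 1.58 in the mutants. These did not overlap either, but the counts of run 2 alone did. How many other gene pairs were separated in this way was not counted. No test is given for a ratio picked in this way.

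Assignment of reads was less certain for the gigantea genes than for the morning genes. The estimated counts were within 0.01 of a whole number in 12 of 12 runs for lhy and for cca1, in 3 of 12 for Zm00001d039589 and in 0 of 12 for Zm00001d008826. Fractional estimates arise where reads are shared among features, so the gigantea estimates carry an error beyond counting. With which genes their reads were shared was not tested. The 2 runs of a sample differed beyond counting noise (exact binomial test, two-sided, unadjusted p under 0.05) in 5 of 6 samples for Zm00001d008826, in 1 of 6 for Zm00001d039589 and for lhy, and in 0 of 6 for cca1. Over all genes tested, 11.67% of such comparisons passed the same threshold. The widest gap was in wild type 3, where Zm00001d008826 read 55.7 TPM in run 1 and 45.7 TPM in run 2.

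The average length of a gene's transcripts, which depends on the mixture of its isoforms, also varied most for the gigantea genes. Zm00001d039589 ranged from 3395 bases in wild type 4 to 4246 bases in wild type 2, a 1.25-fold span with both ends in one genotype. Zm00001d008826 averaged 3410 to 3485 bases in the wild types and 3222 to 3357 bases in the mutants without overlap. The share of all genes whose lengths did not overlap between genotypes was not counted. The nearest samples of the 2 groups were mutant 4 at 3357 bases and wild type 2 at 3410 bases, closer to each other than the 2 runs of mutant 4, which differed by 143 bases. In the other 5 samples the runs differed by 18.6 to 84.4 bases. lhy stayed within 1910 to 1933 bases and cca1 within 2820 to 2895 bases.

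None of the 4 clock genes reached an adjusted p of up to 0.05 in edgeR, where 0 of all 22772 genes did (0%). At an unadjusted edgeR p under 0.05 the clock genes numbered 0 of 4, beside 12.2% of all genes. DESeq2 on the same 6 samples also called 0 of 4 at an adjusted p of up to 0.05, beside 2.72% of all genes. Of these 4 genes, cca1 alone had a DESeq2 unadjusted p under 0.05, at 0.030, beside 3754 of 28019 genes. Its DESeq2 adjusted p was 0.26. In the limma fit of log2(TPM + 1) Zm00001d039589 alone was under 0.05, at an unadjusted p of 0.037, beside 2985 of 21535 genes. With single samples left out, edgeR gave an unadjusted p of 0.033 for Zm00001d039589 without wild type 3, beside 3639 of 23242 genes. For cca1 it gave 0.031 without mutant 2, beside 3326 of 23308 genes, and 0.040 without mutant 3, beside 3236 of 23185 genes. These gene counts are those under the same unadjusted threshold. With each other sample left out, none of the 4 was under it. In scaled CPM, 0 of 4 genes had genotypes that did not overlap, beside 19.3% of all genes. The median log2 fold change was 0.00 over all genes tested, and the 4 clock genes had values of 0.02 to 1.15. A p above the threshold with 3 samples per genotype does not show that a gene was equal in both.

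**Figure D3:**
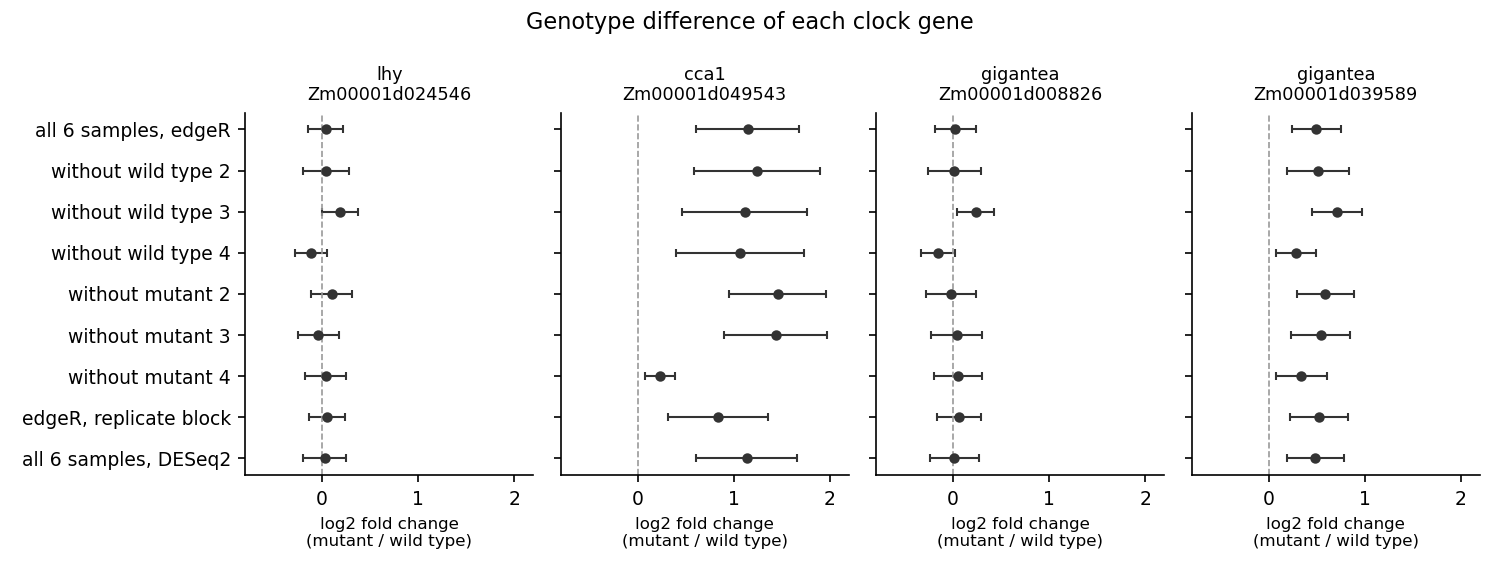
Log2 fold change, mutant over wild type, of each clock gene with ± SE, for all 6 samples by edgeR and DESeq2, with each sample left out by edgeR, and with the replicate number as a block. cca1 drops from 1.15 to 0.23 without mutant 4, and lhy and Zm00001d008826 lie near 0 and change sign with single samples left out.

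The ratio of morning to evening genes asked whether the samples may differ in the time of day at which they were taken. Summed estimated counts of lhy and cca1 over those of both gigantea genes gave 0.988, 0.758 and 1.07 in wild types 2, 3 and 4 and 0.853, 0.992 and 2.29 in mutants 2, 3 and 4. Mutant 4 was the highest and wild type 3 the lowest, while mutants 2 and 3 lay within the wild-type range. The exact binomial 95% interval of the ratio, which covers counting error only, was 2.22 to 2.36 for mutant 4 and 0.731 to 0.786 for wild type 3. Mutant 4 held 14737 morning and 6440 evening counts.

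On the log2 scale the ratio was −0.11 ± 0.26 in the wild type and 0.32 ± 0.77 in the mutant (SD, n = 3 each). The difference was 0.42, with p = 0.50 in a two-sided exact permutation test, whose smallest possible p with 3 samples against 3 is 0.1. Without mutant 4 the difference was −0.01 (exact permutation p = 1.0). With lhy as the only morning gene it was −0.15 (exact permutation p = 0.30), and with cca1 as the only morning gene it was 0.66 (exact permutation p = 0.60). The direction of the ratio thus depended on which morning gene was counted. Runs of 1 sample differed in the log2 ratio by 0.02 to 0.27, and the gap between mutant 4 and the next sample was larger than any of these.

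**Figure D4:**
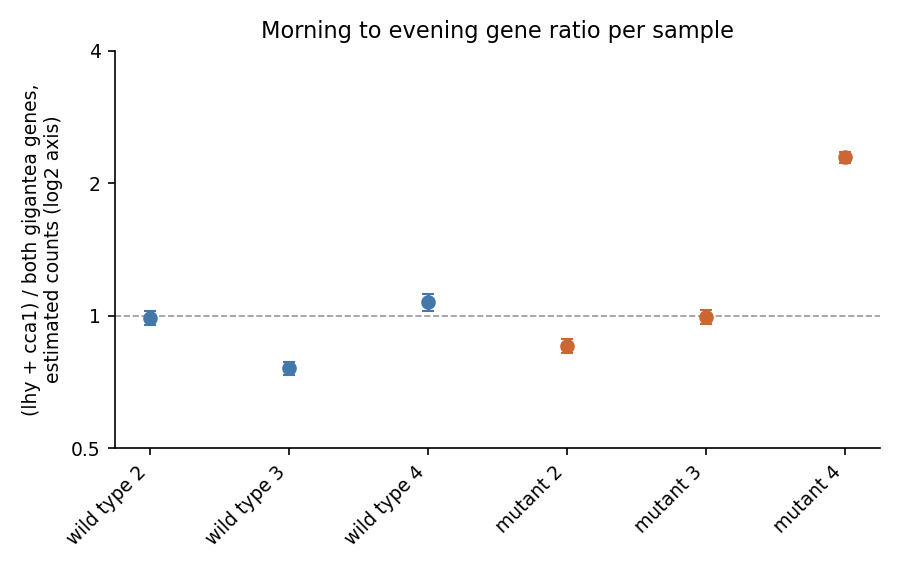
Ratio of summed estimated counts of lhy and cca1 to those of both gigantea genes in each of the 6 samples, on a log2 axis, wild types in blue and mutants in orange; bars are exact binomial 95% intervals and cover counting error only. Mutant 4 stands at 2.29, and the other 5 samples lie between 0.758 and 1.07.

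Averaged as pairs, the morning and evening genes did not run opposite to each other across the apices. Mean log2 CPM of the morning pair and of the evening pair had a Pearson r of 0.66 (exact permutation p = 0.058) and a Spearman rho of 0.89 (exact permutation p = 0.033) over the 6 samples. Without wild type 4 and mutant 4, the 2 samples farthest from the median of the morning pair, r was 0.10 in log2 CPM, so on that scale the relation rested on those samples. On the log2(TPM + 1) scale r was 0.80 with all 6 samples and also 0.80 without the same 2. Wild type 4 was the lowest of the 6 samples in scaled CPM for each of the 4 genes, at 52.9 CPM for lhy, 85.1 for cca1, 96.2 for Zm00001d008826 and 32.6 for Zm00001d039589. Its TMM factor, 0.919, was the lowest, and its total count the highest. A low factor raises scaled CPM and a high total lowers it, and their part in these values was not tested.

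Among the 6 gene pairs, 0 had a correlation that passed adjustment over the 6 pairs, the lowest Benjamini-Hochberg adjusted exact permutation p being 0.22 for Pearson and 0.41 for Spearman. The highest Pearson r was 0.84, between lhy and Zm00001d008826 (unadjusted exact permutation p = 0.072), a morning and an evening gene with the same sign. It was −0.67 without wild types 3 and 4. For cca1 and Zm00001d039589 r was 0.70 (unadjusted exact permutation p = 0.044), and −0.11 without wild type 4 and mutant 4. lhy and Zm00001d039589 had an r of 0.72 (unadjusted exact permutation p = 0.15), and 0.22 without wild types 3 and 4. cca1 and Zm00001d008826 had an r of 0.01 (unadjusted exact permutation p = 0.95) and a rho of −0.09. Without wild type 4 and mutant 4 their r was −0.93. The 2 gigantea genes had an r of 0.67 with each other (unadjusted exact permutation p = 0.18).

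The spread of the clock genes between samples was set beside that of all genes tested, which were not matched to them for expression. The SD of log2 CPM over the 6 samples had a median of 0.36 over all genes tested. It was 0.22 for lhy and 0.26 for Zm00001d008826, under that median. For Zm00001d039589 it was 0.44, above 59.6% of the genes tested. For cca1 it was 0.84, above 84.4% of the genes tested. Without mutant 4 it was 0.18, above 26.0% of them, and the median over all genes was then 0.29. Among the other 5 samples cca1 thus varied less than lhy, whose SD was then 0.24.

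The ratio was also set beside the main axes of the whole transcriptome, computed from all tested genes other than the 4. The first component held 46.0% of the variance and the second 20.2%. The direction of a component is arbitrary, and each was turned so that mutant 4 scored positive. The signs of scores and correlations below follow that choice. Mutant 4 scored 116 on the first component, the highest, and wild type 2 scored −84.0, the lowest, although its ratio of 0.988 was near that of mutant 3. Pearson r of the log2 ratio with the first component was 0.65 (exact permutation p = 0.27, adjusted over 2 components 0.27) and Spearman rho was 0.31 (exact permutation p = 0.56, adjusted 0.56). Without wild type 3 and mutant 4 the r with the first component was −0.45, opposite in sign to that over all 6 samples. With the second component r was 0.50 (exact permutation p = 0.23, adjusted 0.27), rho was 0.71 (exact permutation p = 0.14, adjusted 0.27), and r was 0.91 over the 4 samples that remained. On the second component the 2 samples with the lowest ratios, wild type 3 and mutant 2, scored −58.2 and −59.5, apart from the other 4 samples at 11.2 to 46.7.

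Genes whose pattern was most like the ratio were sought among 6239 genes with a mean of at least 1 CPM and an SD of at least 0.5 on the log2 scale. The highest Pearson r over the 6 samples was that of Zm00001d052684, 0.993, with 18.5 CPM in mutant 4 and 1.10 to 3.58 CPM elsewhere. Zm00001d045563 followed with r of 0.989, at 9.74 CPM in mutant 4 and 1.46 to 3.05 CPM elsewhere. The lowest were Zm00001d028160, r of −0.994, with 8.64 CPM in mutant 4 and 20.7 to 32.2 CPM elsewhere, and Zm00001d027852, r of −0.990, with 7.41 CPM in mutant 4 and 15.3 to 22.0 CPM elsewhere. All 4 were set apart by mutant 4, and wild type 3 lay at the opposite end. With r over 0.9 there were 115 genes and with r under −0.9 there were 129. These values are a description over 6 samples, of which 1 lay far from the rest, and carry no test.

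The authors' deposited table of transcripts at an adjusted p of up to 0.05 lists 7216 transcripts. Of these, 3 belong to the clock genes, 2 to Zm00001d008826 and 1 to cca1, and 0 to lhy and to Zm00001d039589. The table does not give the number of transcripts tested, so no share is set beside this count. Its header does not name the numerator. For 6475 of 7058 transcripts (91.7%) the sign in the authors' deposited table was opposite to that of the mutant minus wild-type difference in mean log2 CPM of the gene. Negative values are therefore taken as higher in the mutant, and all 3 transcripts were negative. The authors' deposited table gives cca1 transcript T003 a log2 fold change of −1.96 (SE 0.68) and an adjusted p of 0.036. Its mean of 77.6 normalized counts was 3.38% of the mean count of the gene per run. For Zm00001d008826 the authors' deposited table gives −1.97 (SE 0.56) for T101 and −3.51 (SE 1.26) for T087, whose means of 17.5 and 2.22 were 0.895% and 0.113% of the gene. The listed transcripts are thus minor parts of these genes, and the table comes from the same libraries.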

How the data were processed

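The authors deposited estimated counts, TPM and the average transcript length in bases per gene and run. They also deposited a DESeq2 table per transcript with mean normalized signal, log2 fold change, Wald score, p-value and adjusted p-value, per the file headers. The submitters' processing notes list STAR, Salmon and DESeq2 without versions; the genome build and any filters were not given in the sources used here. Gene IDs are version 4 gene models, per the file headers.

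For each sample, estimated counts were added over both runs and rounded, and TPM and lengths were averaged. All tested genes were fitted with edgeR 4.0.16 in R 4.3.3 (quasi-likelihood F test, two-sided, TMM scaling, expression filter by group, no covariates), with Benjamini-Hochberg adjustment over 22772 genes and a threshold of 0.05. SEs of log2 fold changes are approximate, from the F statistic. Log2 CPM used a prior count of 2. Ratios and correlations were tested by exact permutation over samples. DESeq2 1.42.0 and limma 3.58.1 served as alternatives. The edgeR and DESeq2 fits, but not those of limma, were run on simulated data. How many changed genes they recovered is not reported here.

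The named genes were the 4 clock IDs and, by rule, the 2 highest and 2 lowest correlations with the ratio. The clock genes, lists and tests were chosen with earlier results of these data known. Of 39324 IDs, 0 were found among 49888 genes of the reference gene table, and sequences of the clock genes were not used here.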

Additional observations from a re-analysis of the deposited data

How the results depend on the processing

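None of the 4 clock genes passed the adjusted threshold under any alternative run. The log2 fold change of cca1 and of Zm00001d039589 stayed positive in all 16 alternatives each, cca1 at 0.23 to 1.46 and Zm00001d039589 at 0.29 to 0.71 with each sample left out. Those of lhy (−0.11 to 0.18) and Zm00001d008826 (−0.16 to 0.23) changed sign with samples left out, lhy without wild type 4 (−0.11) or mutant 3 (−0.04) and Zm00001d008826 without wild type 4 (−0.16) or mutant 2 (−0.02). Zm00001d008826 was also at −0.10 with run 1 alone. The ratio difference ran from −0.01 to 0.70 with each sample left out and was −0.15 with lhy as the only morning gene. The correlation of the morning and evening pairs was 0.80 in log2(TPM + 1) (exact permutation p = 0.0028, the smallest that 6 samples allow) and 0.75 with run 2 alone, each past the threshold. Without wild type 4 and mutant 4 it was 0.10 in log2 CPM, 0.80 in log2(TPM + 1), 0.21 with run 1 alone and 0.57 with run 2 alone. The ratio's r with the first component was −0.45 without its 2 farthest samples, a check added after the data were seen. Over all genes, the 2784 at unadjusted p were 1790 with the replicate block, 1568 with the ratio as a covariate and 1348 to 3639 with each sample left out. The 0 calls became 658 with DESeq2. The replicate block gave a log2 fold change of 0.84 for cca1 and 0.53 for Zm00001d039589, 0.05 for lhy and 0.06 for Zm00001d008826. It changed no call. The ratio difference by pairs was 0.42, which with complete pairs equals the unpaired difference by construction. The correlation of deviations from the genotype means between samples of the same number was 0.22, −0.32 and −0.18 over 6239 genes, so not every pair was over 0.1 and the numbers were not taken to pair the samples. Leaving 1 sample out also lowers the number of samples, and the cause of these changes was not tested.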
